A study of Ambystoma mexicanum with 5 samples.

Results

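*Epha4*, *Pcdh19* and *Ajap1* encode membrane proteins through which a cell meets its neighbours. They were examined as 3 of the 99088 genes in a count table of dermal cells from the uninjured axolotl limb. The question was how transcripts for molecules of the cell surface differ between anterior and posterior cells, and protein was not measured. They were picked by symbol (EPHA4, identifier AMEX60DD002138; PCDH19, AMEX60DD037682; AJAP1, AMEX60DD051419) from genes that the study lists as differing between the positions in these same libraries. The difference between the positions is therefore what chose them, and it is given as a description, with no test claimed for it. All 3 had enough counts to enter the comparison, among 20875 genes tested.

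The libraries came from skin of the lower arm in axolotls 12 cm long, 2 from anterior and 3 from posterior cells, with 8 axolotls (16 lower arms) pooled for each replicate. All animals carried the same pair of transgenes. In the first, a mouse *Prrx1* enhancer (Mmu.Prrx1) drives the nuclear protein TFPnls together with an inducible Cre (ERT2-Cre-ERT2), and the second is the reporter Caggs:loxP-GFP-loxP-mCherry. 4-hydroxytamoxifen given to embryos left connective tissue cells permanently mCherry-positive. Cells of both positions were uninjured and were sorted for mCherry, a label that depends on the enhancer being active around the time of that treatment. The study's reporting summary states that the purity of sorted cells was not checked by sorting them again. The samples described in that section carried another reporter (*Hand2*:EGFP), and it does not say whether the statement covers the cells used here. The sources do not say whether anterior and posterior replicates of the same number shared animals. Library totals ran from 44317956 to 59062548 counts. Levels are given in CPM (counts scaled to the size of each library, here adjusted for composition by the TMM method). By the library totals alone, before that adjustment, 3 counts correspond to 0.0508 to 0.0677 CPM. Dermal connective tissue genes (*Postn*, *Col12a1*, *Fn1*, *Tnxb*) were detected in every library, at a summed level of 11340 and 12811 CPM in anterior and 7054 to 8045 CPM in posterior cells, with *Postn* and *Col12a1* higher in anterior and *Fn1* and *Tnxb* higher in posterior cells. *Prrx1* itself was not analysed here, since no source used here pairs it with an identifier.

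Eph receptors are tyrosine kinases that bind ephrins anchored in the membrane of an adjacent cell, and signals can pass into both cells. Contact between Eph- and ephrin-bearing cells often ends in repulsion, which keeps cell populations apart at tissue boundaries. In the limb buds of mouse and chick, EphA4 is best known for steering motor axons. Protocadherin 19 is a calcium-dependent adhesion protein of the δ2 group of protocadherins, which lie singly in the genome rather than in the large protocadherin clusters. In humans, a mosaic of cells with and without it causes a form of epilepsy, which has been ascribed to faulty recognition between the cell types. AJAP1, also called shrew-1, is a transmembrane protein found at adherens junctions of epithelial cells. No sequence of the 3 proteins was used here.

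*Epha4* was the anterior member. Its counts were 2465 and 2563 in anterior replicates 1 and 2, and 787, 892 and 834 in posterior replicates 1 to 3. After scaling, anterior cells were at 55.0 and 50.2 CPM, and posterior cells at 13.4, 15.2 and 15.5 CPM. Both anterior libraries lay far above every posterior library. The lowest anterior value was 3.24 times the highest posterior value. Anterior cells averaged 52.6 ± 3.39 CPM (n = 2, SD) and posterior cells 14.7 ± 1.14 CPM (n = 3, SD). The log2 fold change was -1.84 with an SE of 0.19 (positive values being higher in posterior cells), a 3.57-fold difference. The transcript of the receptor was thus still well detected in posterior cells, at 787 counts or more per library. In bulk samples such as these, fewer cells carrying a transcript and less transcript per cell cannot be told apart.

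*Ajap1* was higher in posterior cells. The anterior libraries held 593 and 586 of its counts and the posterior libraries 1583, 1493 and 1401. The levels were 13.2 and 11.5 CPM in anterior cells against 27.0, 25.5 and 26.1 CPM in posterior cells. The posterior libraries nearly coincided, with a coefficient of variation of 2.87%, and the lowest of them was 1.93 times the higher anterior value. Anterior cells averaged 12.4 ± 1.24 CPM (n = 2, SD) and posterior cells 26.2 ± 0.751 CPM (n = 3, SD), and the log2 fold change was 1.08 with an SE of 0.22.

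*Pcdh19* was also higher in posterior cells, by the smallest fold of the 3. The counts were 1053 and 1309 in anterior cells and 2424, 2242 and 2589 in posterior cells, or 23.5 and 25.6 CPM against 41.3, 38.3 and 48.2 CPM. The positions did not overlap, but posterior replicate 2 was only 1.49 times anterior replicate 2. Anterior cells averaged 24.6 ± 1.52 CPM (n = 2, SD) and posterior cells 42.6 ± 5.05 CPM (n = 3, SD), and the log2 fold change was 0.79 with an SE of 0.19. The posterior libraries of *Pcdh19* varied more than those of the other members, with a coefficient of variation of 11.9%.

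**Figure D1:**
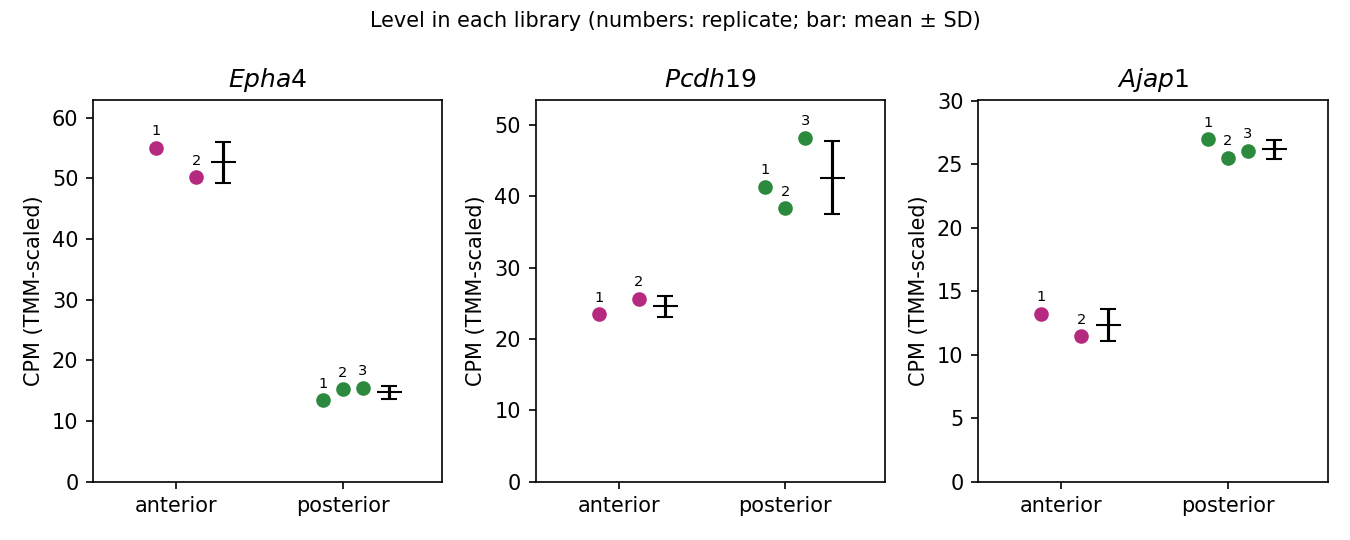
Level of *Epha4*, *Pcdh19* and *Ajap1* in each library, in CPM scaled by TMM, with the vertical axis starting at 0. Points are libraries (numbers give the replicate), and the bar beside them is the mean ± SD of 2 anterior or 3 posterior libraries. *Epha4* lies at 50.2 CPM or more in anterior and at 15.5 CPM or less in posterior cells, and the other genes lie higher in posterior cells.

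The positions did not overlap in any of the 3 genes. Of all genes tested, 24.1% had positions that did not overlap, 10.5% with posterior and 13.6% with anterior cells higher. The positions were also compared by a quasi-likelihood test in edgeR, Benjamini-Hochberg adjusted, at a false-discovery rate (FDR) of 0.01, the level of the study. There, *Epha4* was 1 of the 53 genes past the threshold, or 0.254% of those tested, and *Ajap1* and *Pcdh19* were not past it. These genes were chosen from this contrast, so that nothing is read from their calls. In a DESeq2 Wald test, the tool with which the study chose its genes, 1.37% of the genes with an adjusted p passed the same threshold. *Epha4* lay inside it in that test (adjusted p = 7.43e-13, log2 fold change -1.82). *Ajap1* also lay inside it (adjusted p = 0.00234, log2 fold change 1.10) and *Pcdh19* just outside (adjusted p = 0.0146, log2 fold change 0.81). The study lists *Pcdh19* at that threshold, so that its call was not reproduced here. In edgeR's test, *Epha4* lost its call when any posterior library was left out. Its adjusted p there was 0.0357, 0.0547 and 0.021 without posterior replicates 1, 2 and 3. Only 5, 2 and 3 of all genes passed in those fits. The log2 fold change of *Epha4* stayed between -1.90 and -1.77 over the 5 fits that each left out 1 library of either position.

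**Figure D2:**
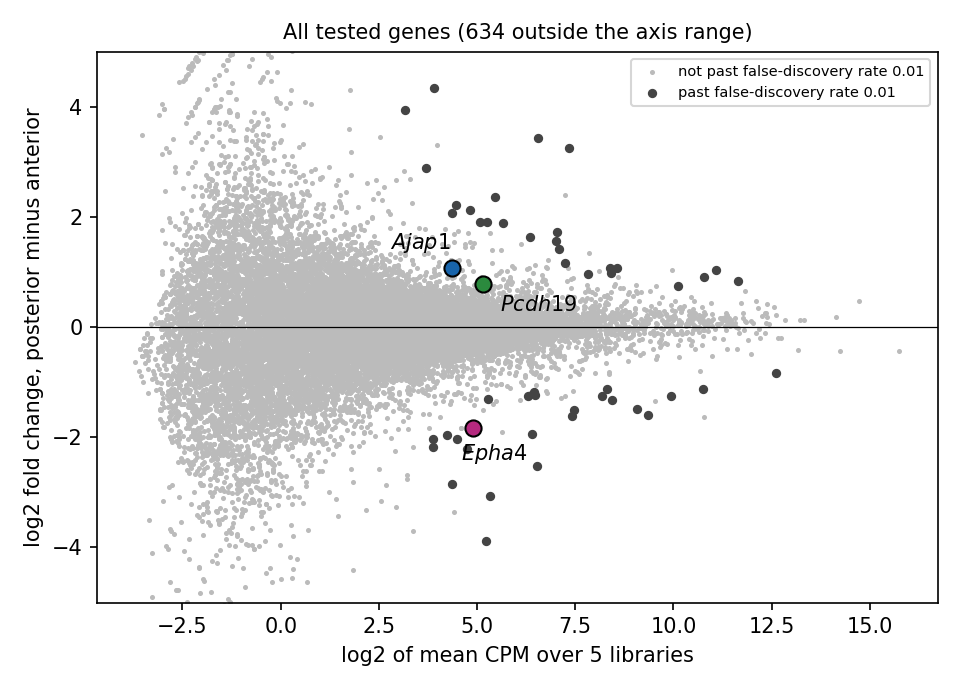
Log2 fold change (posterior minus anterior) of every tested gene against the log2 of its mean CPM over the 5 libraries. Dark points passed an FDR of 0.01 in the edgeR test and grey points did not, 634 genes lie outside the axis range of 5, and the large points are the 3 cell-contact genes, of which *Epha4* is at -1.84, *Ajap1* at 1.08 and *Pcdh19* at 0.79.

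The 3 genes were expressed at moderate and similar levels. Their mean over the 5 libraries was 35.4 CPM for *Pcdh19*, 29.9 CPM for *Epha4* and 20.7 CPM for *Ajap1*, above 86.1%, 83.9% and 78.4% of the genes tested. These libraries count the 3′ end of each transcript, so that the values compare between genes without a correction for length, as far as the annotated 3′ ends are right. At these depths, counting error alone gives a coefficient of variation between 1.97% and 4.13% per library. The spread of log2 CPM between replicates of a position was 0.107 for *Epha4*, 0.147 for *Pcdh19* and 0.090 for *Ajap1*. Among tested genes within 1.5-fold of the same mean level, the median spread was 0.212 to 0.261, and 89.3%, 74.7% and 95.8% of them varied more than *Epha4*, *Pcdh19* and *Ajap1*. A small spread favours selection by a test, so that this is a description of the chosen genes.

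Ratios of counts within a library do not depend on any scaling between libraries. In anterior cells, *Epha4* had 4.16 and 4.37 counts for each count of *Ajap1*. In posterior cells it had 0.497, 0.598 and 0.595. The rank of *Epha4* thus changed, from the most abundant of the 3 in both anterior libraries to the least abundant in all 3 posterior libraries, while *Pcdh19* exceeded *Ajap1* in every library. The ratio of *Epha4* to *Pcdh19* went from 2.34 and 1.96 in anterior to 0.325, 0.398 and 0.322 in posterior cells. *Epha4* was chosen from this contrast in the opposite direction to *Ajap1* and *Pcdh19*. A shift in its ratios to them follows from that choice, so that these values are a description. The ratio of *Pcdh19* to *Ajap1* was 1.78 and 2.23 in anterior and 1.53, 1.50 and 1.85 in posterior cells. These ranges overlapped.

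*Efna5* (AMEX60DD042697) encodes ephrin-A5, a ligand of EphA receptors that is held to the membrane by a lipid anchor. The anterior libraries held 3610 and 4614 of its counts and the posterior libraries 12742, 10582 and 9621. Anterior cells averaged 85.5 ± 6.95 CPM (n = 2, SD) and posterior cells 192 ± 21.6 CPM (n = 3, SD), and the log2 fold change was 1.17 with an SE of 0.15. The transcript of the ligand was therefore abundant on both sides and more so on the side where *Epha4* was lower. For each count of *Epha4* there were 1.47 and 1.80 counts of *Efna5* in anterior cells and 16.2, 11.9 and 11.5 in posterior cells. The highest ratio was that of posterior replicate 1, which had the lowest *Epha4* and the highest *Efna5*. *Efna5* is, like the members, on the study's list of genes that differ between the positions, and its direction was part of that choice.

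*Pcdh18* (AMEX60DD044712), another δ2 protocadherin, was distributed in the opposite way to *Pcdh19*. The anterior libraries held 1988 and 1997 of its counts and the posterior libraries 1418, 1195 and 1237. Anterior cells averaged 41.8 ± 3.71 CPM (n = 2, SD) and posterior cells 22.5 ± 1.93 CPM (n = 3, SD), and the log2 fold change was -0.89 with an SE of 0.19. The sum of both genes differed little between the positions, with an average of 66.3 ± 2.19 CPM (n = 2, SD) in anterior and of 65.1 ± 6.24 CPM (n = 3, SD) in posterior cells. What differed was the composition of this pair, and other δ2 protocadherins were not analysed here. *Pcdh18* is, like *Pcdh19*, on the study's list of genes that differ between the positions. With opposite directions, a shift in share follows from that choice, and the 2 differences offset each other in the sum. The sum and the shares are therefore a description. *Pcdh19* made up 34.6% of the pair's counts in anterior replicate 1 (95% Wilson interval 33.0% to 36.3%) and 39.6% in anterior replicate 2 (37.9% to 41.3%). In posterior cells it made up 63.1% (61.6% to 64.6%), 65.2% (63.6% to 66.8%) and 67.7% (66.2% to 69.1%) in replicates 1 to 3. *Pcdh18* was the more abundant of the pair in both anterior libraries and *Pcdh19* in every posterior library. These intervals treat every read as independent and leave out differences between replicates. Reads were not tagged with molecular identifiers as far as the methods say, so that the intervals may be too narrow even for counting error. The intervals of anterior replicates 1 and 2 did not overlap, nor did those of posterior replicates 1 and 3. Replicates of a position thus differed by more than the intervals cover.

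**Figure D3:**
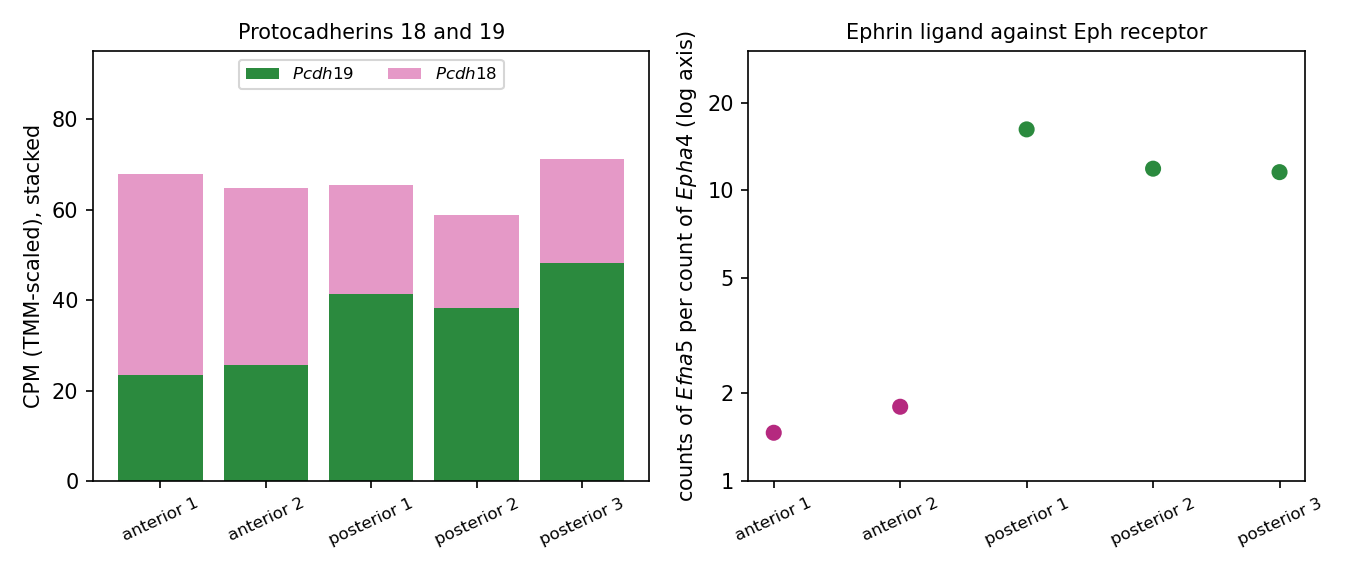
Left, level of *Pcdh19* and *Pcdh18* in CPM, stacked for each library, so that the height of a bar is their sum (58.7 to 71.2 CPM). Right, counts of *Efna5* per count of *Epha4* in each library on a log axis, between 1.47 and 1.80 in the 2 anterior libraries and between 11.5 and 16.2 in the 3 posterior libraries.

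Other genes of cell contact and guidance were described from a list of 20 genes with an identifier, which includes the 3 members. Every gene of the list carries a symbol because the study found it to differ, so that the counts describe that selection. Of the 20, posterior cells were higher for 7 and anterior cells for 13, with a median log2 fold change of -0.73 against -0.02 over all genes tested. In the edgeR test, 1 of the 7 and 3 of the 13 were past an FDR of 0.01, against 0.12% and 0.134% of all genes tested. Without posterior replicate 1, 2 or 3, 0 of the 20 were past it in the same test, and only 5, 2 and 3 of all genes were. Unadjusted p-values of the list in those fits were not compared with those of all genes. With every library kept, all 20 had an unadjusted p under 0.05, against 7.55% of all genes. In the DESeq2 test with all libraries, 19 passed, against 1.37% of the genes with an adjusted p.

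Among guidance cues, the list holds *Epha4*, *Efna5*, 5 semaphorins, 2 genes with the symbol *Ntn1* and *Slit3*. The secreted semaphorins *Sema3e*, *Sema3g* and *Sema3f* had log2 fold changes of 1.45, 1.50 and -0.73 and were not past the threshold (edgeR, adjusted p = 0.0652, 0.0196 and 0.0476). *Ntn1* (AMEX60DD030673), which encodes the secreted cue netrin-1, averaged 135 ± 10.8 CPM (n = 2, SD) in anterior and only 57.5 ± 6.53 CPM (n = 3, SD) in posterior cells. Its log2 fold change was -1.23 with an SE of 0.15 (edgeR, adjusted p = 0.00611). The other gene with that symbol (AMEX60DD016542) had a log2 fold change of -1.16, and since reads could be shared between near-identical copies, the separate values are uncertain. *Sema7a*, which encodes a membrane-anchored semaphorin, was counted 72 and 114 times in the anterior libraries and 0 times in each posterior library. Its anterior level was low, at 1.61 and 2.23 CPM, and it was not past the threshold (edgeR, adjusted p = 0.174).

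In the cadherin superfamily, *Cdh13* (AMEX60DD017526), which encodes a cadherin held by a lipid anchor instead of a membrane-spanning segment, was on the anterior side like *Pcdh18*. Anterior cells averaged 43.7 ± 7.64 CPM (n = 2, SD) and posterior cells 18.5 ± 4.35 CPM (n = 3, SD), and the log2 fold change was -1.24 with an SE of 0.24. Of the cadherin genes *Pcdh18*, *Pcdh19* and *Cdh13*, 0 passed edgeR's test (0.254% of all genes tested did), 3 had an unadjusted p under 0.05 (7.55%) and 2 passed in DESeq2 (1.37%), counts that describe how the genes were selected. *Pcdh19* was the posterior one of the group.

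The junction proteins lay on both sides. *Dsp* (AMEX60DD038318), which encodes desmoplakin of desmosomes, was higher in posterior cells like *Ajap1*, with averages of 121 ± 12.9 CPM (n = 2, SD) anteriorly and 196 ± 40.7 CPM (n = 3, SD) posteriorly and a log2 fold change of 0.70 (SE 0.18). *Ocln* (AMEX60DD013889), which encodes occludin of tight junctions, was higher in anterior cells, with averages of 107 ± 17.2 CPM (n = 2, SD) anteriorly and 42.4 ± 11.0 CPM (n = 3, SD) posteriorly and a log2 fold change of -1.33 (SE 0.22). Of *Ajap1*, *Dsp* and *Ocln*, 0 passed edgeR's test, 3 had an unadjusted p under 0.05 and 3 passed in DESeq2, against the same shares of all genes (0.254%, 7.55% and 1.37%) and after the same selection. Among the immunoglobulin-like adhesion proteins, *Mdga1* (AMEX60DD036390), which in mammals binds neuroligins, was anterior like *Epha4*, with 33.6 and 48.6 CPM in anterior and 11.1, 9.62 and 9.23 CPM in posterior cells and a log2 fold change of -2.04 with an SE of 0.23 (edgeR, adjusted p = 0.00433). *Cdon* and *Cadm3* had log2 fold changes of -0.86 and -0.73, and *Icam5* of 1.34.

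**Figure D4:**
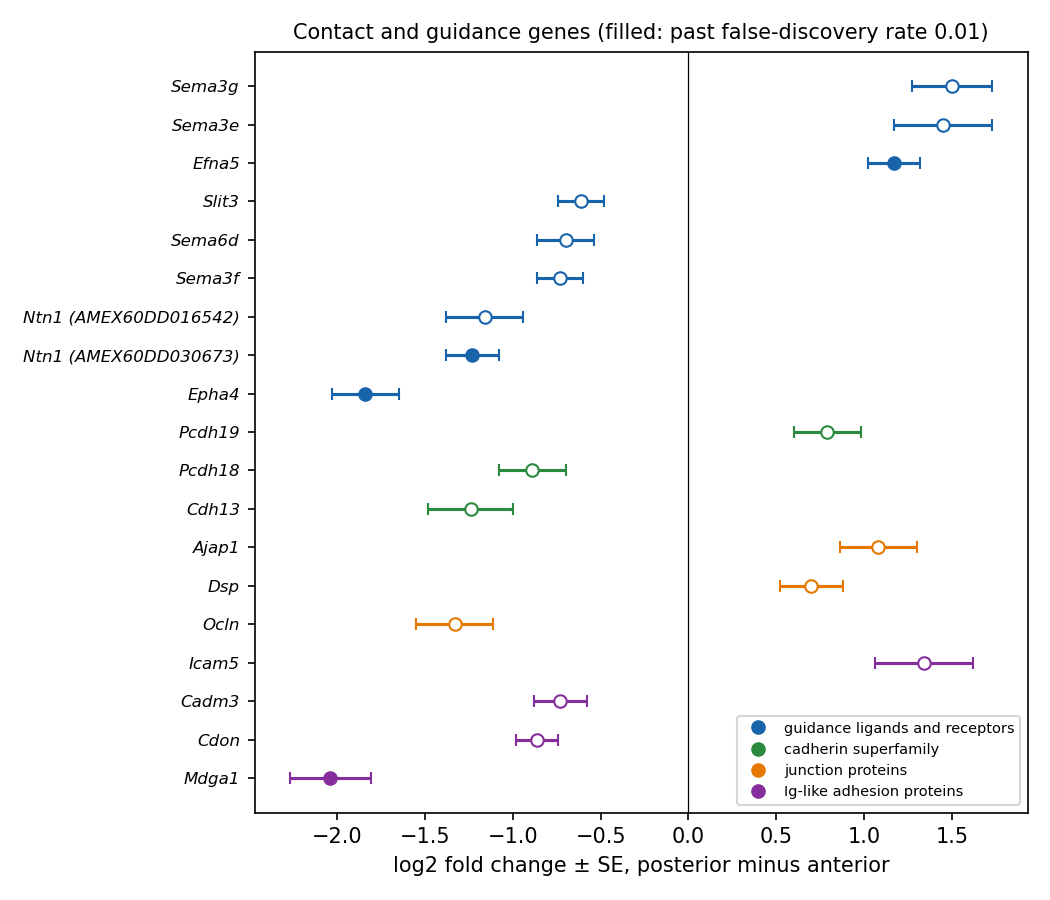
Log2 fold change (posterior minus anterior) with its standard error for 19 of the 20 contact and guidance genes, coloured by family. *Sema7a*, with 0 counts in posterior cells, is left out, and filled points (*Epha4*, *Efna5*, *Ntn1* AMEX60DD030673 and *Mdga1*) passed an FDR of 0.01 in the edgeR test.

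The study also lists genes that it found to differ in these libraries and that fall under the Gene Ontology term cell adhesion, of which 28 of 32 have an identifier here, *Epha4*, *Pcdh19* and *Ajap1* among them. Of the 28, posterior cells were higher for 11 and anterior cells for 17, and 6 were past the threshold in edgeR's test, against 0.254% of all genes tested. The number was 27 in the DESeq2 test, where 1.37% of the genes with an adjusted p passed. In edgeR it was 0 without posterior replicate 1, 2 or 3, and only 5, 2 and 3 of all genes passed there. Unadjusted p-values of these genes in those fits were not compared with those of all genes. The median of the absolute log2 fold change was 0.99, against 0.37 over all genes tested, a difference that the choice of the list fixed in advance. *Epha4*, at 1.84, had the largest absolute log2 fold change of the 28, followed by *Thbs3* at 1.64 and *Thbs2* at 1.49, which encode secreted thrombospondins. *Ajap1* lay near the median and *Pcdh19*, at 0.79, below it.

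The genes with the most similar pattern over the 5 libraries were found from log2 CPM, centred on each gene's mean, as the root mean square difference from the member, among 275 other tested genes with a symbol. For *Epha4* these were *Smoc2* at 0.127, *Egr4* at 0.145 and *Nr2f1* at 0.173 on the log2 scale. *Smoc2* encodes a secreted matrix protein, and *Egr4* and *Nr2f1* encode transcription factors. For *Pcdh19* they were *Oasl* at 0.040, LOC102059433 at 0.063 and *B3gnt9*, which encodes a glycosyltransferase, at 0.074. For *Ajap1* they were *Capg*, which encodes an actin-capping protein, at 0.042, *Igfbp5*, which encodes a secreted binding protein of insulin-like growth factors, at 0.078, and *Fbln5*, which encodes a protein of elastic fibres, at 0.118. Over all 20874 other tested genes, no gene was nearer to *Epha4* than *Smoc2*, to *Pcdh19* than *Oasl* or to *Ajap1* than *Capg*. Counting those named, 1 and 3 genes were nearer to *Epha4* than *Egr4* and *Nr2f1*. For *Pcdh19*, 3 and 6 were nearer than LOC102059433 and *B3gnt9*, and for *Ajap1*, 1 and 2 than *Igfbp5* and *Fbln5*. Genes with a symbol are those the study found to differ, so that a similar step between the positions was favoured by that choice. The posterior members differed from each other by 0.207, and *Epha4* differed from *Pcdh19* and *Ajap1* by 1.29 and 1.43.

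Markers of other cell types could be looked up only where the study found them to differ between the positions, so that their lists are limited to such genes. The summed level of 7 epidermal genes was 318 and 298 CPM in anterior cells and 878, 634 and 724 CPM in posterior replicates 1 to 3. Of these, 6 were higher in posterior cells, while *Krt17* had 0 counts in both anterior libraries and *Krt18* had 0 counts in all posterior libraries. *Ajap1* and *Pcdh19* lay on the same side as the 6 epidermal genes that were higher in posterior cells. *Epha4* lay on the side of *Krt18*. Between posterior libraries, the epidermal sum varied from 634 to 878 CPM, *Ajap1* from 25.5 to 27.0 CPM and *Pcdh19* from 38.3 to 48.2 CPM. *Ajap1* was highest in replicate 1 and lowest in replicate 2, in the order of the epidermal sum. Its posterior coefficient of variation was only 2.87%, while counting error alone gives 2.51% at its highest count. Nothing is therefore read from that order. *Pcdh19* was also lowest in replicate 2 but highest in replicate 3, where the epidermal sum was in between. In anterior cells, the epidermal sum and *Ajap1* were higher in replicate 1 and *Pcdh19* in replicate 2. *Dsp* is itself on the epidermal list. The junction gene *Ocln*, which is not on it, was higher in anterior cells, with a log2 fold change of -1.33. The sum of 4 immune genes was 321 to 330 CPM in anterior and 656 to 671 CPM in posterior cells, all 4 higher in posterior cells, and *Capg*, the gene nearest to *Ajap1*, is one of them. The sum of 4 vascular genes was 71.6 to 80.1 CPM in anterior and 107 to 139 CPM in posterior cells, and 3 of the 4 were higher in posterior cells. The sum of 3 neural genes overlapped, at 83.2 and 90.7 CPM in anterior and 79.3 to 87.7 CPM in posterior cells. *Ngfr* and *Ednrb* were higher in both anterior libraries, and *Uchl1* in all posterior libraries. The cartilage gene *Acan* was at 26.0 and 34.0 CPM in anterior and 46.7 to 70.8 CPM in posterior cells. The part of other cell types in the values of *Ajap1*, *Pcdh19* and *Epha4* was not tested.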

How the data were processed

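Counts of reads per gene were deposited by the authors as whole numbers for 5 libraries, without normalization. Per the labels and the study's methods, the authors made QuantSeq 3′ libraries from 20.25 ng of RNA, trimmed reads with Trimmomatic 0.39, mapped them to AmexG_v6.0-DD with HISAT2, allowing several alignments for a read, and obtained the count table from featureCounts. How featureCounts treated reads with several alignments is not given in the sources used here, which leaves the counts of close paralogues uncertain. Libraries were assigned from the sample labels. Symbols come from the study's lists of differing genes, which pair 283 of 306 identifiers with a symbol, so that other Eph, ephrin and cadherin genes were not analysed here. The table of RefSeq genes for axolotl is of another assembly and was not used for positions.

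Genes were filtered with filterByExpr, scaled by TMM and fitted with position as the only term in edgeR 4.0.16 (R 4.3.3, glmQLFit and glmQLFTest). P-values were adjusted over all 20875 genes tested. A standard error is the absolute log2 fold change divided by the square root of F. Log2 CPM used a prior count of 2. Alternatives used DESeq2 1.42.0, limma-voom (limma 3.58.1), other scalings and filters, a robust fit, a block for replicate number, a false-discovery rate (FDR) of 0.05, and the omission of each library. The fits were tested on simulated data. The genes and lists were chosen with earlier results of these data known. Genes given values were chiefly the members, genes of the same family or binding partners, list genes past the threshold, and the 3 genes nearest in pattern to each member. Markers of other cell types were given as sums, and some as counts or CPM. Other genes were named to describe their family, some with counts, a fold change or an adjusted p, and *Thbs2* and *Thbs3* were named after their values were seen.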

Additional observations from a re-analysis of the deposited data

How the results depend on the processing

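The log2 fold changes of *Epha4*, *Pcdh19* and *Ajap1* kept their direction in all 13 alternative fits. With each library left out in turn they ranged from -1.90 to -1.77 for *Epha4*, from 0.71 to 0.87 for *Pcdh19* and from 0.99 to 1.19 for *Ajap1*. In the other alternatives they ranged from -1.88 to -1.82, from 0.70 to 0.81 and from 1.08 to 1.10. Counts past the threshold depended much more on the processing, from 53 of all genes, 6 of the cell adhesion genes and 4 of the contact and guidance genes in the reported test. With DESeq2 they were 298, 27 and 19, without the filter on low counts 337, 27 and 17, with a robust fit 103, 11 and 7, and at a false-discovery rate of 0.05 127, 11 and 8. With limma-voom they were 74, 10 and 6. With each library left out they ranged from 2 to 62, from 0 to 6 and from 0 to 3, the lowest values being those without a posterior library (5, 2 and 3 of all genes without replicates 1, 2 and 3). With an anterior library left out, the remaining one is assumed to vary like the posterior libraries. The cause of these shifts was not tested.

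With the replicate number as a block, 130 genes, 13 cell adhesion genes and 8 contact and guidance genes passed, and the log2 fold changes were -1.88 for *Epha4*, 0.70 for *Pcdh19* and 1.09 for *Ajap1*. The sources do not state that a shared number marks shared animals, and across genes, which are not independent, the differences between replicates 1 and 2 of the anterior and of the posterior position were correlated with r = -0.0253 (Pearson). For the 17 other contact and guidance genes, 221 alternative values kept their direction. Of these, 173 stayed on the same side of the threshold, 36 passed it newly and 12 no longer passed. Other scalings moved the median log2 fold change of all genes by at most 0.017. The 3 genes had at least 586 counts in every library, and there were 2 and 3 libraries per position.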
